A study of Mus musculus with 12 samples.

Results

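JV001 was set against saline in mice with a hypertensive kidney disease model that the design text calls CKD, by RNA-seq of isolated heart muscle cells. Columns of the deposited count table were assigned to groups by their names and the labels, and no measured value chose them. The comparison uses 6 of the 12 libraries of the series, 3 of CKD mice injected with JV001 (CKD JV001) and 3 of CKD mice injected with saline (CKD saline). All the mice were C57BL6 with a WT genotype. Both CKD groups had AngII, a high salt diet and uninephrectomy, the removal of 1 kidney. The labels give 12 weeks for CKD JV001 and no duration for CKD saline. The other 6 libraries came from sham-operated mice of the same strain, at 12 weeks, 3 with JV001 and 3 with saline, and were fitted together with the CKD libraries. The labels describe JV001 by nothing but this code name, without dose or carrier, and the series title speaks of recapping telomeres by gene therapy. The table held 22584 genes, of which 15004 had enough reads to be tested. Whether the 3 libraries of a group came from separate animals is not stated; the p-values therefore reflect the scatter among these libraries, part or all of which could be technical.

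AngII narrows vessels, makes heart muscle cells grow and activates the fibroblasts that lay down scar, and salt loading with less kidney tissue adds pressure and volume. Ventricular cardiomyocytes burn mainly fatty acids in dense mitochondria, contract through sarcomeres and start each beat with calcium release from the sarcoplasmic reticulum. Under load they commonly return to part of the gene set of the fetal and atrial heart, while interferons, chemokines and complement report tissue injury to immune cells. Telomeres are capped by the shelterin proteins, and uncapped ends signal through p53 and inhibitors of the cell cycle.

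Sequencing depth ranged from 25.2 to 34.4 in units of 1e6 counts in the 6 CKD libraries, and levels are given as CPM, counts per 1e6 counts with TMM (trimmed mean of M values) normalisation, always for libraries 1, 2 and 3 in that order. The ventricular cardiomyocyte markers, which check the cell type label, were abundant and had a mean level of 11.92, 11.94 and 10.72 log2 CPM in CKD JV001, against 12.61, 12.62 and 11.78 log2 CPM in CKD saline. Library 3 of each group stood apart. CKD saline library 3 had a Spearman correlation of 0.986 with CKD JV001 library 2 and 0.984 with CKD JV001 library 1, but 0.944 with either of the other CKD saline libraries, whereas libraries 1 and 2 correlated at 0.993 within CKD JV001 and at 0.990 within CKD saline. In these correlations CKD saline library 3 went against its label. Whether labels were exchanged was not tested, the library was kept as labelled, and list counts are given with and without library 3 where that bears on them. CKD JV001 library 3 was the highest or the lowest of the 6 libraries in 69.4% of genes. Libraries 1 and 2 of a group had a mean chi-square per gene of 29.5 in CKD JV001 and 9.09 in CKD saline, where counting noise alone gives 1. The medians were 2.39 and 2.09, against 20.3 to 26.9 for the pairs with library 3. Repeated libraries of the same animal can also exceed counting noise, so these values do not show separate samples. Libraries 1 and 2 were kept as separate samples, which was not tested. In these bulk libraries fewer cells of a type and less RNA per cell cannot be told apart.

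**Figure D1:**
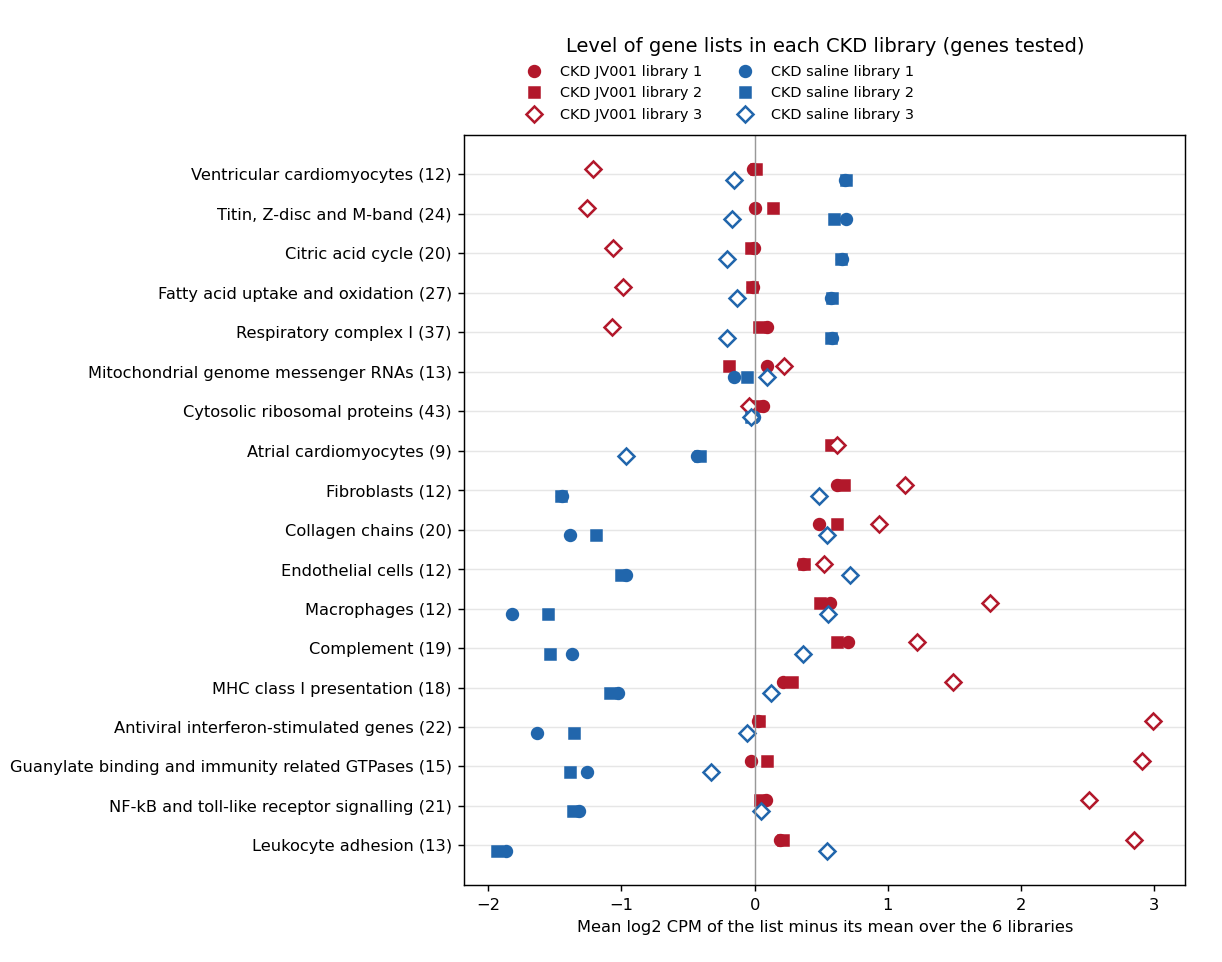
Mean level of 18 gene lists in each of the 6 CKD libraries, in log2 CPM relative to the mean of the 6 libraries, with CKD JV001 drawn above CKD saline in each row and the number of tested genes in brackets. CKD saline library 3 lies near CKD JV001 libraries 1 and 2 in most rows, atrial markers being an exception. CKD JV001 library 3 lies farthest out in many rows, among them the ventricular, titin, citric acid cycle, fatty acid, complex I, interferon and adhesion rows.

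No gene passed the test with all libraries. The quasi-likelihood F test of edgeR called 0 of 15004 genes at an adjusted p under 0.05 (0.0% higher and 0.0% lower, smallest adjusted p 0.276). An unadjusted p under 0.05 was reached by 1394 genes that were higher with JV001 (9.29%) and 1313 that were lower (8.75%). On the deposited FPKM scale, log2(FPKM + 1) in limma and without TMM factors, the split was 2435 higher and 208 lower of 11624 genes. The 3 CKD JV001 libraries all lay above the 3 CKD saline libraries in 1234 genes (8.22%) and all below them in 906 (6.04%). These shares are the background for every list count that follows, and since all genes share the same 6 libraries, the members of a list are not independent. The median log2 fold change over all genes was 0.02. Every gene named below had an adjusted p between 0.276 and 0.826 in this edgeR test. DESeq2 called 44 genes higher (0.297%) and 23 lower (0.155%). With the replicate number as a block and only the 6 CKD libraries, edgeR called 2850 genes, and with the block and all 12 libraries 0. The count at an unadjusted p under 0.05, 2707 in all, was 763, 769 and 924 without CKD saline library 1, CKD saline library 2 and CKD JV001 library 3, and 6579 without CKD saline library 3. Fitted on the 6 CKD libraries alone it was 1146, of which 820 were higher and 326 lower, so the background shares hold for the fit of 12 libraries. Without CKD saline library 3, edgeR called 2039 genes higher (13.2%) and 1248 lower (8.07%), and without library 3 of both groups 1494 higher (9.77%) and 1549 lower (10.1%). Of the genes called higher without library 3 of both groups, CKD saline library 3 lay nearer to CKD JV001 in 97.6%, and of those called lower in 96.8%. Below, "passed without library 3" refers to the edgeR fit without library 3 of both groups. That fit keeps only libraries 1 and 2 of each CKD group and drops the saline library that mostly lay nearer to CKD JV001. Counts from it describe libraries 1 and 2 and are no independent support for a difference.

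Among the higher genes with the smallest p whose groups did not overlap, several code for secreted proteins. Il33, a cytokine that cells release as an alarm, had 12.7, 11.6 and 17.6 CPM in CKD JV001 libraries, against 2.48, 1.75 and 4.53 CPM in CKD saline libraries. Each CKD JV001 library was more than 2 times the highest CKD saline library, with a log2 fold change of 2.26 (SE 0.50). Enpp2, the secreted enzyme that makes lysophosphatidic acid, had 21.2, 20.5 and 26.5 CPM in CKD JV001 libraries, against 4.89, 5.25 and 10.05 CPM in CKD saline libraries, a log2 fold change of 1.76 (SE 0.42). Angptl2, a secreted angiopoietin-like protein, had 92.3, 93.8 and 117 CPM in CKD JV001 libraries, against 49.2, 51.9 and 68.9 CPM in CKD saline libraries. Its groups did not overlap and CKD saline library 3 was the highest of its group, with a log2 fold change of 0.83 (SE 0.18). Apod, a lipid carrier, had 15.96, 13.3 and 13.3 CPM with JV001, against 1.74, 2.57 and 6.47 CPM with saline. Csrp2, a LIM protein of smooth muscle, had 12.7, 13.98 and 21.7 CPM with JV001, against 4.26, 4.42 and 8.501 CPM with saline. For both, the highest saline library was library 3, and the log2 fold changes were 1.98 (SE 0.51) and 1.497 (SE 0.37).

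In 2 further genes of this group CKD saline library 3 was not the saline library nearest to CKD JV001. Zfp703, a transcriptional repressor, had 13.6, 15.6 and 17.99 CPM in CKD JV001 libraries, against 9.37, 8.08 and 7.43 CPM in CKD saline libraries, with CKD saline library 3 the lowest of the 6. The log2 fold change was 0.92 (SE 0.19). Cad, which makes the first intermediates of pyrimidines, had 17.9, 18.6 and 21.1 CPM in CKD JV001 libraries, against 11.99, 14.02 and 11.7 CPM in CKD saline libraries, a log2 fold change of 0.61 (SE 0.15). The 10 higher genes with the smallest p, which also held Dhx58 and Serpina3f, all lay above each of the 6 sham libraries in the 3 CKD JV001 libraries.

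Genes that were lower in all 3 CKD JV001 libraries than in all 3 CKD saline libraries included a kinase subunit, a transporter, a receptor and a channel. Camk2b, a calmodulin-dependent kinase subunit, had 7.31, 9.76 and 5.05 CPM in CKD JV001 libraries, against 21.9, 24.97 and 11.6 CPM in CKD saline libraries, with a log2 fold change of -1.401 (SE 0.31). Slc36a2, an amino acid transporter coupled to protons, had 7.25, 10.5 and 5.19 CPM with JV001, against 21.6, 21.1 and 11.7 CPM with saline, a log2 fold change of -1.24 (SE 0.28). Adra1a, the alpha-1A adrenergic receptor, had 22.9, 23.9 and 10.2 CPM with JV001, against 53.6, 51.5 and 27.9 CPM with saline. In these 3 genes CKD saline library 3 was the lowest of its group and still above every CKD JV001 library; the log2 fold change of Adra1a was -1.22 (SE 0.33). Mylk4, a myosin light chain kinase, had 83.5, 88.9 and 63.2 CPM in CKD JV001 libraries, against 255, 243 and 100.4 CPM in CKD saline libraries. Hcn4, the main pacemaker channel, had 4.72, 4.06 and 2.82 CPM with JV001, against 9.22, 10.4 and 6.24 CPM with saline. Their log2 fold changes were -1.34 (SE 0.37) and -1.16 (SE 0.30).

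Smaller differences were seen in Fam131a, with 12.1, 13.7 and 11.5 CPM in CKD JV001 libraries, against 20.4, 21.8 and 19.7 CPM in CKD saline libraries, and in Tnik, a kinase of the Wnt pathway, with 10.5, 9.52 and 10.1 CPM with JV001, against 20.3, 18.4 and 14.5 CPM with saline. The log2 fold changes were -0.73 (SE 0.17) and -0.82 (SE 0.21). Ralgapa2, which switches off Ral GTPases, had 43.7, 49.9 and 31.5 CPM with JV001, against 94.5, 91.5 and 52.7 CPM with saline, so CKD saline library 3 lay just above the highest CKD JV001 library, with a log2 fold change of -0.93 (SE 0.24). Lamb3, a laminin chain, Fgd1, an exchange factor for small GTPases, and Cep70, a centrosome protein, had log2 fold changes of -0.99, -1.09 and -0.84, with no overlap. The 10 lower genes with the smallest p all lay below each of the 6 sham libraries in the 3 CKD JV001 libraries. Egr3, an immediate early transcription factor, had 6.14, 7.905 and 3.35 CPM in CKD JV001 libraries, against 12.6, 11.8 and 20.5 CPM in CKD saline libraries. Here CKD saline library 3 was the highest of the 6 and CKD JV001 library 3 the lowest, with a log2 fold change of -1.37 (SE 0.37). The sham libraries had 3.77, 4.49 and 2.42 CPM with JV001 and 1.99, 2.78 and 1.58 CPM with saline, below all the CKD saline libraries.

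**Figure D2:**
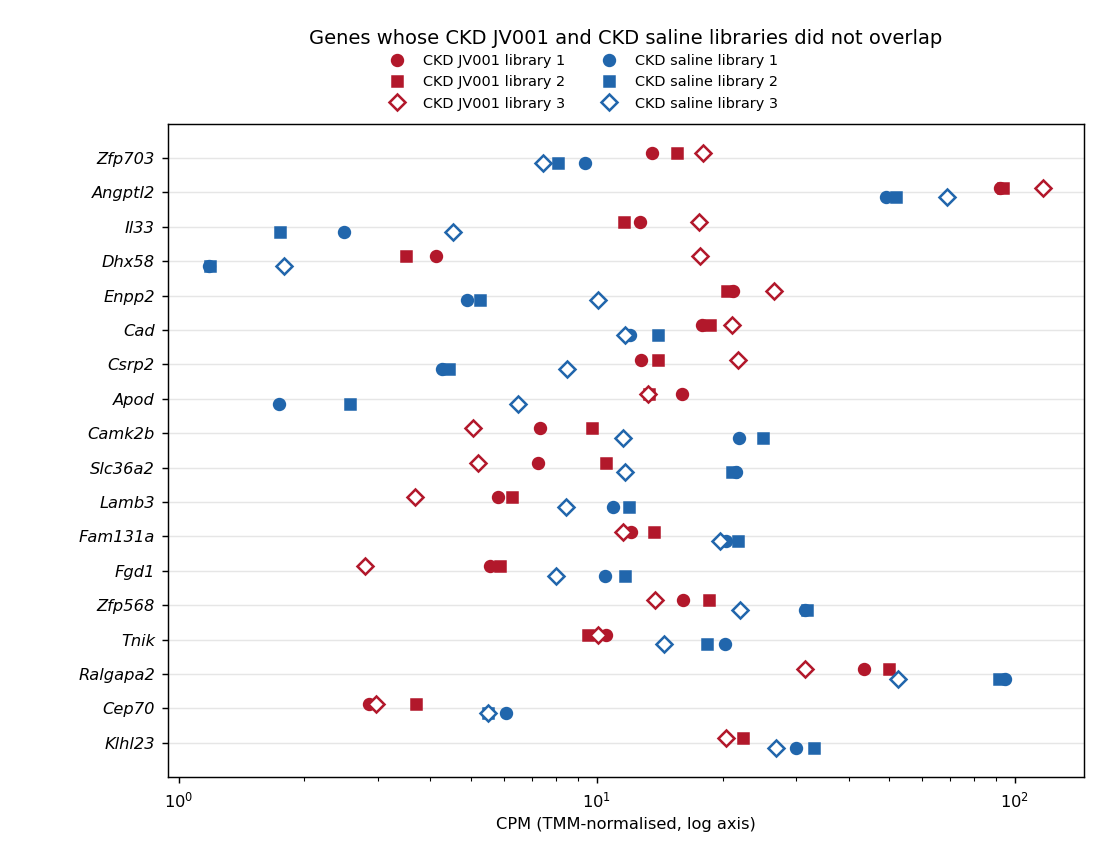
Levels in CPM on a log axis, by library, of 8 higher and 10 lower genes, from the 10 in each direction with the smallest p among those whose groups did not overlap and whose mean reached 5 CPM in a CKD group, CKD JV001 above CKD saline in each row. Serpina3f, which also ranked among the 10 higher genes, is left out because CKD saline library 2 had 0 reads. In Zfp703, Cad and Fam131a the 3 saline libraries lie together, and in Camk2b and Ralgapa2 CKD saline library 3 lies closest to CKD JV001.

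Genes induced by interferon were higher in CKD JV001, library 3 above all. Of 22 antiviral interferon-stimulated genes 22 were positive, 22 had an unadjusted p under 0.05 and 9 did not overlap (background 8.22%), with a median log2 fold change of 2.51 against 0.02 over all genes. Without CKD JV001 library 3 the median was 0.81, and 4 of the 22 passed without library 3. Ifit3, which blocks translation of viral RNA, had 17.6, 19.2 and 156 CPM in CKD JV001 libraries, against 8.995, 9.501 and 10.6 CPM in CKD saline libraries. The log2 fold change was 2.73 (SE 0.79), or 0.92 without CKD JV001 library 3. Isg15, a ubiquitin-like protein, had 6.52, 5.92 and 96.7 CPM with JV001, against 2.67, 2.21 and 5.52 CPM with saline, with CKD saline library 3 just below CKD JV001 library 2. Its log2 fold change of 3.395 (SE 1.04) was 0.85 without CKD JV001 library 3. Usp18, which removes Isg15 from proteins, had 8.14, 8.81 and 47.7 CPM with JV001, against 3.48, 3.46 and 5.32 CPM with saline, a log2 fold change of 2.398 (SE 0.65). Ifi27l2a differed in that CKD JV001 libraries 1 and 2 were within 2 times of library 3, with 24.6, 21.9 and 33.5 CPM in CKD JV001 libraries, against 4.11, 4.12 and 12.04 CPM in CKD saline libraries and a log2 fold change of 1.98 (SE 0.51). It passed without library 3.

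Of 16 genes of nucleic acid sensing 15 were positive, 11 had an unadjusted p under 0.05 and 5 did not overlap, and of 17 genes of interferon signalling 16 were positive, 9 had an unadjusted p under 0.05 and 3 did not overlap. Dhx58, an RNA helicase that tunes the sensing of viral RNA, had 4.12, 3.501 and 17.7 CPM in CKD JV001 libraries, against 1.18, 1.19 and 1.79 CPM in CKD saline libraries, a log2 fold change of 2.604 (SE 0.62). Cgas, the sensor of DNA in the cytosol, had 0.94998, 1.09 and 6.896 CPM with JV001, against 0.333, 0.165 and 0.715 CPM with saline, a log2 fold change of 2.88 (SE 0.91). Irf7, the transcription factor that amplifies interferon production, had 22.8, 20.1 and 88.3 CPM with JV001, against 9.62, 6.86 and 19.5 CPM with saline; the groups did not overlap, but CKD saline library 3 lay within 1 CPM of CKD JV001 library 2. The fold change was 1.87 (SE 0.64) on the log2 scale. Ifngr2, a subunit of the interferon gamma receptor, was the member of the signalling list with the opposite sign, at 112, 104 and 72.2 CPM in CKD JV001 libraries, against 177, 178 and 100.2 CPM in CKD saline libraries. The groups overlapped through CKD saline library 3 and the log2 fold change was -0.66 (SE 0.26).

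All 15 tested guanylate binding proteins and immunity-related GTPases, which attack membranes around intracellular microbes, were positive with an unadjusted p under 0.05, and 10 did not overlap. Their median log2 fold change was 2.32, or 0.87 without CKD JV001 library 3. Gbp2 had 47.6, 46.3 and 383 CPM in CKD JV001 libraries, against 12.1, 11.3 and 36.1 CPM in CKD saline libraries, a log2 fold change of 3.000 (SE 0.86). Gbp5, which also promotes the inflammasome, had 19.03, 19.9 and 514 CPM with JV001, against 6.59, 6.3997 and 16.5 CPM with saline, so library 3 carried more than 20 times the level of the other CKD JV001 libraries. Its log2 fold change was 4.23 (SE 1.24), or 0.99 without CKD JV001 library 3. Irgm1 had 24.4, 24.9 and 167 CPM with JV001, against 17.1, 19.4 and 24.3 CPM with saline, with CKD saline library 3 almost level with CKD JV001 library 1, and a log2 fold change of 1.83 (SE 0.63), or 0.28 without CKD JV001 library 3. The Gbp, Ifit, Serpina3 and H2 families hold near-identical copies, among which counting can split reads, so the values of their single members are uncertain.

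The 250 bases before the transcription starts of listed genes were read for 2 motifs, in RefSeq sequence of the build GRCm38.p6. The interferon-stimulated response element (ISRE) was searched as GAAA followed by any 2 bases and GAAA, on both strands. The NF-kB motif was searched as GGGA followed by any base and TTTCC, on both strands. Tested list members were included whatever their fold change, so the shares describe the lists and not the difference with JV001. Of the genes tested, 11822 had such a window and 3.19% of these held the ISRE letters. They were present in 9 of 9 guanylate binding and immunity-related GTPase genes with a window, in 10 of 18 antiviral genes (55.6%) and in 2 of 16 genes of MHC class I presentation (12.5%). Interferon signalling had 3 of 16 and nucleic acid sensing 1 of 11. Windows of 15 collagen genes held 0 and those of 33 complex I genes 2 (6.06%). The NF-kB letters were found in 0.440% of all windows of genes tested and in 2 of 13 chemokine ligand genes. They were in 2 of 15 genes of NF-kB and toll-like receptor signalling, 1 of 12 of interleukin-6 and acute phase and 0 of 6 of leukocyte adhesion. The NF-kB letters were also in 1 of 9 GTPase genes, 1 of 11 of nucleic acid sensing and 1 of 16 of interferon signalling. MHC class I presentation had 1 of 16 and the antiviral genes 0 of 18. The ISRE letters were in 2 of 13 chemokine ligand genes (15.4%) and 1 of 12 of interleukin-6 and acute phase. NF-kB and toll-like receptor signalling had 1 of 15 with the ISRE letters and leukocyte adhesion 0 of 6. Matches to the 2 motifs were counted separately wherever they fell. A match of letters is a description and says nothing of binding in these cells. The 6 windows below belong to interferon genes described here, capitals mark the ISRE match on either strand (overlapping matches run together), and the last base is the one before the transcription start.
Isg15 (chr4:156200819-156201068, - strand): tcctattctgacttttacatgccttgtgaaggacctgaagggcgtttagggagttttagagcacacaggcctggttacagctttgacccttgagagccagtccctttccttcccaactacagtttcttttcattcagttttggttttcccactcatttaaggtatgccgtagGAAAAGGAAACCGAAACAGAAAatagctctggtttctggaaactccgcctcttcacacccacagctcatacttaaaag
Ifit3 (chr19:34583279-34583528, + strand): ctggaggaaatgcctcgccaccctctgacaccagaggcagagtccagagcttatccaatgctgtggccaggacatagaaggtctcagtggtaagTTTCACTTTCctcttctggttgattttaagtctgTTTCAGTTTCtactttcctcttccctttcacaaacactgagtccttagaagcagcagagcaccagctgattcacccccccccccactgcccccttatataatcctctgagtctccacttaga
Gbp2 (chr3:142620413-142620662, + strand): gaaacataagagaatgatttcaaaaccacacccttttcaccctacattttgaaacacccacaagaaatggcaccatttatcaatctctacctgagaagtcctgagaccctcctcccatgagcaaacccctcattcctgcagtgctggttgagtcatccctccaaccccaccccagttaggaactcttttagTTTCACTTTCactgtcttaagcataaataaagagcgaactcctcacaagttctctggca
Gbp5 (chr3:142496684-142496933, + strand): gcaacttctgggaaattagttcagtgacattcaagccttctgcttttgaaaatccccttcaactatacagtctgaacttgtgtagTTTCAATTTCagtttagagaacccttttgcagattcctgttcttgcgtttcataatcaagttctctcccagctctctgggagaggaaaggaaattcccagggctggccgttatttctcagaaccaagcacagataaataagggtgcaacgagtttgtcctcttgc
Irgm1 (chr11:48871421-48871670, - strand): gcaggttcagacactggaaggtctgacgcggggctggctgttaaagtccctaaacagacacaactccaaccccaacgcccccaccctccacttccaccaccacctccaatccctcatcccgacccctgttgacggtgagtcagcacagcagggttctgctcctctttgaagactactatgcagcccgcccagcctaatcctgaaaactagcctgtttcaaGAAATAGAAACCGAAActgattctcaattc
Cxcl10 (chr5:92348890-92349139, - strand): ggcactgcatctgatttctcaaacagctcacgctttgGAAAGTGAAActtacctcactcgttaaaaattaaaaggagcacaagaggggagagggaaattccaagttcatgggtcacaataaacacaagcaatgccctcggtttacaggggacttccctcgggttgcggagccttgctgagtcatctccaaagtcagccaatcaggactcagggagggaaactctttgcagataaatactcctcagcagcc
In Isg15 3 overlapping matches began 78 bases before the start, in Ifit3 the first of 2 matches began 156 bases before it, and the single match of Gbp2 began 59 bases before it. The single match of Cxcl10 began 213 bases before its start, and the 2 overlapping matches of Irgm1 30 bases before.

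Chemokines, acute-phase genes and adhesion molecules were higher in CKD JV001 mainly through library 3. Of 19 chemokine ligands 19 were positive, 14 had an unadjusted p under 0.05 and 7 did not overlap, with a median log2 fold change of 2.14, or 0.82 without CKD JV001 library 3. Cxcl10, which draws T cells, had 2.44, 1.2997 and 219.5 CPM in CKD JV001 libraries, against 0.444, 0.429 and 0.953 CPM in CKD saline libraries. The 2 lower CKD JV001 libraries still lay above all saline libraries, and the log2 fold change of 6.94 (SE 1.903) was 1.62 without library 3. Ccl2, which draws monocytes, had 5.67, 6.58 and 109.7 CPM with JV001, against 1.41, 1.48 and 14.1 CPM with saline, where CKD saline library 3 exceeded CKD JV001 libraries 1 and 2. Its log2 fold change of 2.85 (SE 1.195) was 0.12 without CKD JV001 library 3.

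Socs3, the feedback inhibitor of interleukin-6 signalling, was higher in every CKD JV001 library, with 107, 102 and 303 CPM in CKD JV001 libraries, against 34.8, 36.4 and 49.8 CPM in CKD saline libraries and a log2 fold change of 2.08 (SE 0.56). Serpina3n, an acute-phase protease inhibitor, had 31.03, 31.96 and 402 CPM with JV001, against 5.15, 4.62 and 21.6 CPM with saline, a log2 fold change of 3.89 (SE 1.08), and passed without library 3. Of 21 genes of NF-kB and toll-like receptor signalling 21 were positive, 19 had an unadjusted p under 0.05 and 8 did not overlap, with a median of 1.91, or 0.58 without CKD JV001 library 3. Nfkbia, the inhibitor that NF-kB induces, had 66.97, 66.7 and 459 CPM with JV001, against 29.3, 27.6 and 107 CPM with saline, and the groups overlapped. The fit gave 1.85 (SE 0.80) for its log2 fold change. Tnf had 3.99, 3.71 and 20.9 CPM with JV001, against 0.962, 1.68 and 2.11 CPM with saline, a log2 fold change of 2.59 (SE 0.77) with no overlap.

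Selectins, integrins and their ligands, which stop leukocytes on the vessel wall, were positive in 13 of 13, with 6 at an unadjusted p under 0.05 and 2 not overlapping. Selp, P-selectin, had 1.87, 2.02 and 450.3 CPM in CKD JV001 libraries, against 0.222, 0.132 and 1.55 CPM in CKD saline libraries. The log2 fold change of 7.93 (SE 2.08) was 1.62 without CKD JV001 library 3. Icam1 had 33.1, 33.5 and 2347 CPM with JV001, against 8.11, 10.3 and 66.1 CPM with saline. Vcam1 had 33.6, 33.2 and 632 CPM with JV001, against 9.18, 9.896 and 44.9 CPM with saline. In both, CKD saline library 3 exceeded CKD JV001 libraries 1 and 2, and the log2 fold changes of 4.84 (SE 1.58) and 3.45 (SE 1.104) were 0.24 and 0.65 without CKD JV001 library 3. Neutrophil markers moved with these genes: S100a9, an abundant neutrophil protein, had 6.11, 6.45 and 140.1 CPM with JV001, against 1.18, 2.08 and 32.7 CPM with saline, and its log2 fold change of 2.09 was -0.93 without CKD JV001 library 3. All 9 tested neutrophil markers were positive and 1 did not overlap, with a summed level of 21.6, 22.1 and 356 CPM in CKD JV001, against 5.63, 6.103 and 86.2 CPM in CKD saline. The part of neutrophils in the difference was not tested.

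**Figure D3:**
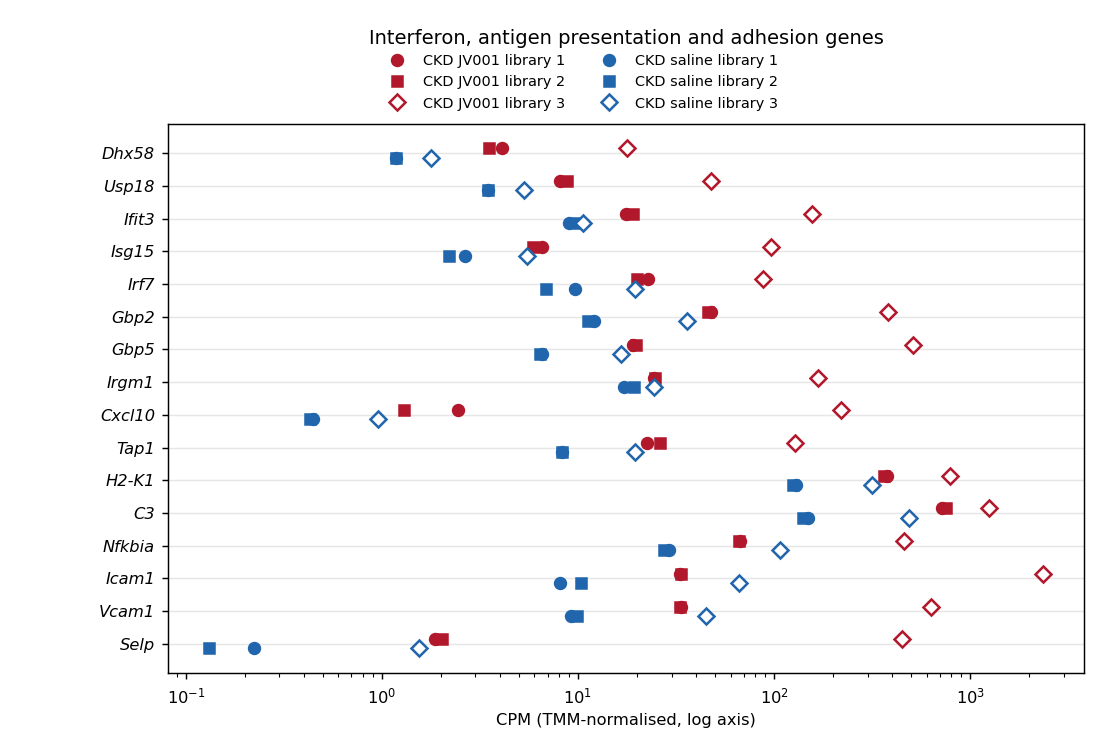
Levels in CPM on a log axis, by library, of 16 genes of interferon response, antigen presentation, complement, NF-kB and leukocyte adhesion, CKD JV001 above CKD saline in each row. CKD JV001 library 3 is the highest of the 6 in every row, and in Icam1, Vcam1 and Nfkbia CKD saline library 3 lies above CKD JV001 libraries 1 and 2.

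Antigen presentation and complement genes had positive log2 fold changes throughout, and for many of them all 3 CKD JV001 libraries lay above CKD saline. Of 18 genes of MHC class I presentation 18 were positive, 15 had an unadjusted p under 0.05, 11 did not overlap and 12 passed without library 3, with a median of 1.403, or 0.86 without CKD JV001 library 3. H2-K1, a classical class I heavy chain, had 375, 366 and 789.8 CPM in CKD JV001 libraries, against 129.6, 125 and 317 CPM in CKD saline libraries, a log2 fold change of 1.42 (SE 0.50). B2m, the light chain of class I, had 318, 308 and 651 CPM with JV001, against 121, 122 and 280.4 CPM with saline, a log2 fold change of 1.29 (SE 0.47). Tap1, which pumps peptides to class I, had 22.5, 26.2 and 129 CPM with JV001, against 8.33, 8.31 and 19.5 CPM with saline, a log2 fold change of 2.296 (SE 0.68). In all 3 genes CKD saline library 3 lay more than 2 times above the other saline libraries and below the lowest CKD JV001 library.

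Of 19 complement genes 19 were positive, 11 had an unadjusted p under 0.05, 10 did not overlap and 14 passed without library 3, with a median of 1.496. C3, the central component, had 721, 749 and 1244 CPM in CKD JV001 libraries, against 149.8, 139.8 and 486 CPM in CKD saline libraries. Its log2 fold change was 1.81 (SE 0.62), or 1.51 without CKD JV001 library 3. Cfb, which amplifies the alternative pathway, had 9.21, 11.8 and 38.8 CPM with JV001, against 1.81, 1.78 and 6.32 CPM with saline, a log2 fold change of 2.597 (SE 0.80). C5ar1, the receptor for C5a on myeloid cells, had 8.96, 8.14 and 47.1 CPM with JV001, against 2.295, 0.858 and 6.87 CPM with saline, a log2 fold change of 2.68 (SE 0.85). MHC class II genes, carried by macrophages and other presenting cells, were positive in 9 of 9, of which 0 had an unadjusted p under 0.05 and 6 did not overlap, with a median of 1.36; H2-Aa had 69.7, 67.3 and 82.5 CPM with JV001, against 16.4, 12.7 and 56.7 CPM with saline, a log2 fold change of 1.36 (SE 0.65).

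Markers of other cell types shifted in the same libraries. Summed over 12 fibroblast markers the level was 3029, 3041 and 3993 CPM in CKD JV001, against 667, 694 and 2608 CPM in CKD saline, and 11 of the 12 did not overlap. Summed over 12 macrophage markers it was 548, 544 and 1026 CPM, against 107, 106 and 531 CPM, and 1 of the 12 did not overlap. Endothelial markers overlapped in all 12 genes: Pecam1 had 308, 307 and 509 CPM with JV001, against 106, 100.3 and 357 CPM with saline, a log2 fold change of 1.00 (SE 0.55). The erythroid markers were highest in CKD saline library 3, and their summed level was 144, 136 and 335 CPM in CKD JV001, against 47.8, 53.2 and 666 CPM in CKD saline. Mast cell markers were low, and 3 of 5 did not overlap. Tpsb2, a tryptase, had 1.61, 0.981 and 2.64 CPM with JV001, against 0.3702, 0.231 and 0.278 CPM with saline. Mcpt4, a chymase that makes AngII, had 0.918, 0.531 and 3.55 CPM with JV001, against 0.333, 0.06598 and 0.318 CPM with saline. Their log2 fold changes were 2.56 (SE 0.81) and 2.797 (SE 0.94). The part of other cell types in the differences of immune and matrix genes was not tested.

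Genes of the extracellular matrix were higher in CKD JV001, and CKD saline library 3 lay nearer to CKD JV001 than the other saline libraries did. Of 20 collagen chains 19 were positive, 7 had an unadjusted p under 0.05, 7 did not overlap and 15 passed without library 3, with a median of 1.18 that was 2.21 without CKD saline library 3. Col1a1, the main chain of scar collagen, had 95.8, 102 and 108 CPM in CKD JV001 libraries, against 15.6, 17.2 and 76.3 CPM in CKD saline libraries. CKD saline library 3 held more than 4 times the level of the other saline libraries, and the log2 fold change of 1.49 (SE 0.62) was 2.63 without it. Col3a1 had 136, 142 and 173 CPM with JV001, against 24.5, 25.6 and 121 CPM with saline, a log2 fold change of 1.399 (SE 0.65). Col14a1, which organises fibrils, had 19.3, 21.7 and 26.4 CPM with JV001, against 4.04, 4.82 and 13.5 CPM with saline, a log2 fold change of 1.59 (SE 0.59).

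Of 27 matricellular proteins and glycoproteins 26 were positive, 10 had an unadjusted p under 0.05, 11 did not overlap and 21 passed without library 3, with a median of 1.21. Ltbp2, which binds microfibrils, had 23.7, 24.7 and 13.6 CPM in CKD JV001 libraries, against 3.85, 3.69 and 12.99 CPM in CKD saline libraries. In it CKD JV001 library 3 and CKD saline library 3 were nearly level, and the log2 fold change was 1.596 (SE 0.47). Fbln1, fibulin-1, had 141, 147 and 177 CPM with JV001, against 38.4, 41.1 and 101 CPM with saline, a log2 fold change of 1.36 (SE 0.39). Cilp, made by fibroblasts under TGF-beta, had 73.5, 71.6 and 37.2 CPM with JV001, against 9.99, 9.896 and 59.5 CPM with saline, and its groups overlapped because CKD JV001 library 3 lay below CKD saline library 3. The log2 fold change was 1.201 (SE 0.64), or 2.84 without library 3 of both groups. The member with the opposite sign was Ccn1, a matrix signal induced by stretch, at 417, 425 and 179 CPM in CKD JV001 libraries, against 505, 491 and 361 CPM in CKD saline libraries, a log2 fold change of -0.41 (SE 0.33).

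Proteoglycans were positive in 14 of 15, with 10 at an unadjusted p under 0.05 and 9 not overlapping. Bgn, biglycan, had 377, 359.9 and 419 CPM with JV001, against 74.7, 82.7 and 329 CPM with saline, a log2 fold change of 1.25 (SE 0.55). Prg4, a lubricating proteoglycan, had 35.2, 33.7 and 58.6 CPM with JV001, against 8.88, 8.74 and 29.2 CPM with saline, a log2 fold change of 1.45 (SE 0.55). Ogn, osteoglycin, showed a small separation, with 59.5, 50.96 and 48.8 CPM with JV001, against 38.3, 42.5 and 42.2 CPM with saline and a log2 fold change of 0.37 (SE 0.14). Of 21 proteases and inhibitors 20 were positive and 3 did not overlap above. Mmp2, gelatinase A, had 60.8, 66.7 and 79.2 CPM in CKD JV001 libraries, against 13.2, 15.5 and 46.6 CPM in CKD saline libraries, a log2 fold change of 1.46 (SE 0.50). Mmp15, a membrane-type metalloproteinase, was the negative one, with 67.8, 74.2 and 57.6 CPM with JV001, against 89.4, 96.9 and 95.1 CPM with saline, and in it CKD saline library 3 kept with the other saline libraries. The log2 fold change was -0.50 (SE 0.13), and it passed without library 3 and in DESeq2. Of 22 TGF-beta pathway genes 21 were positive and 5 did not overlap; Tgfbr2, the type II receptor, had 73.3, 80.2 and 119 CPM with JV001, against 37.4, 36.3 and 69.8 CPM with saline, a log2 fold change of 0.93 (SE 0.30). Ltbp3, which holds latent TGF-beta, had 52.8, 55.5 and 43.02 CPM with JV001, against 30.5, 32.4 and 41.03 CPM with saline, a log2 fold change of 0.54 (SE 0.18).

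For 6 of 9 atrial markers every CKD JV001 library lay above every CKD saline library, and in several of these CKD saline library 3 was the farthest from CKD JV001. Of the 9, 7 were positive and 2 had an unadjusted p under 0.05, with a median of 1.85 that ranged from 1.596 to 1.99 when any 1 CKD library was left out. Myl4, the atrial essential light chain, had 66.8, 70.6 and 89.7 CPM in CKD JV001 libraries, against 25.2, 22.8 and 13.7 CPM in CKD saline libraries. Sln, sarcolipin, which restrains the calcium pump in atria, had 21.8, 17.4 and 20.5 CPM with JV001, against 6.26, 6.47 and 3.65 CPM with saline. In both, CKD saline library 3 was the lowest of the 6, with log2 fold changes of 1.88 (SE 0.91) and 1.86 (SE 0.88). Nppa, the atrial natriuretic peptide, had 855, 810.2 and 454 CPM with JV001, against 238, 238 and 149.5 CPM with saline, a log2 fold change of 1.76 (SE 0.67). Dkk3, a secreted protein of atrial cells, had 28.1, 29.9 and 32.6 CPM with JV001, against 7.29, 6.04 and 7.63 CPM with saline, a log2 fold change of 2.11 (SE 0.79). Bmp10, an atrial growth factor, had 2.69, 2.25 and 11.6 CPM with JV001, against 0.666, 0.825 and 0.755 CPM with saline, a log2 fold change of 2.88 (SE 1.36). Atrial levels were uneven among the sham libraries too: Myl4 had 176, 388 and 96.5 CPM in sham JV001 libraries, against 569.96, 13.8 and 161 CPM in sham saline libraries. Kcnj3, a potassium channel subunit of the same list that ventricles also express, was lower, with 36.9, 36.98 and 23.2 CPM in CKD JV001 libraries, against 50.6, 57.8 and 31.9 CPM in CKD saline libraries and a log2 fold change of -0.53 (SE 0.30). Without library 3 of both groups 0 of the 9 markers passed, and how much atrial tissue each heart sample held was not tested. The wider list of hypertrophy and the fetal programme did not rise as a whole. Of its 20 genes 6 were positive and 14 negative, and 3 lay above and 1 below without overlap. Its median was -0.15, or 0.06 without CKD JV001 library 3.

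Most sarcomere genes had negative log2 fold changes, and the groups overlapped. Of 24 genes of titin, the Z-disc and the M-band 24 were negative, 6 had an unadjusted p under 0.05, 0 did not overlap and 12 passed without library 3, with a median of -0.68. Ttn, titin, the spring of the sarcomere, had 1775, 2062 and 981 CPM in CKD JV001 libraries, against 3547, 3546 and 1994 CPM in CKD saline libraries. CKD saline library 3 lay between the CKD JV001 libraries, and the log2 fold change was -0.92 (SE 0.31). Myom1, which links thick filaments at the M-band, had 1123, 1159 and 515 CPM with JV001, against 1854, 1868 and 1040.4 CPM with saline, a log2 fold change of -0.77 (SE 0.33). Lmod2, which lengthens thin filaments, had 534, 503 and 213 CPM with JV001, against 932, 919 and 411 CPM with saline, a log2 fold change of -0.85 (SE 0.38). Of 12 thin filament genes 10 were negative, 3 with an unadjusted p under 0.05, and 0 did not overlap. Of 12 genes of the thick filament and myosin isoforms 9 were negative, 3 with an unadjusted p under 0.05, and the 3 positive ones, Myl4 among them, all lay above without overlap. Of 18 genes of the intercalated disc and costamere 15 were negative, 12 had an unadjusted p under 0.05 and 12 passed as lower without library 3. Dsp, desmoplakin, had 829, 939 and 379.6 CPM with JV001, against 1449, 1461 and 765 CPM with saline, a log2 fold change of -0.77 (SE 0.34). Lama2, the laminin chain around muscle fibres, had the opposite sign, with 109, 117 and 167 CPM with JV001, against 84.03, 85.3 and 124 CPM with saline and a log2 fold change of 0.43 (SE 0.20). Gata4, a cardiac transcription factor, had 86.8, 80.1 and 33.3 CPM with JV001, against 124, 132 and 82.2 CPM with saline, a log2 fold change of -0.75 (SE 0.32).

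Of 23 calcium handling genes 17 were negative, 12 with an unadjusted p under 0.05, and the median was -0.68. Ryr2, the calcium release channel, had 863, 1015 and 543 CPM in CKD JV001 libraries, against 1755, 1787 and 905 CPM in CKD saline libraries, a log2 fold change of -0.88 (SE 0.29). Cacna1c, the L-type calcium channel, had 147, 172 and 84.2 CPM with JV001, against 288, 275 and 167 CPM with saline, a log2 fold change of -0.86 (SE 0.27). Jph1, which holds the T-tubule to the reticulum, had 12.9, 10.1 and 6.25 CPM with JV001, against 26.6, 24.4 and 11.3 CPM with saline, a log2 fold change of -1.09 (SE 0.35). In all 3 the groups overlapped through CKD saline library 3. Among 18 sodium, pacemaker and connexin genes 5 lay below without overlap (background 6.04%) and 1 above. Hcn2, another pacemaker channel, had 19.7, 19.7 and 10.2 CPM in CKD JV001 libraries, against 35.98, 34.8 and 23.5 CPM in CKD saline libraries, a log2 fold change of -0.93 (SE 0.28). Cacna1h, a T-type calcium channel of the fetal and loaded heart, was the 1 above, with 7.73, 8.67 and 14.1 CPM with JV001, against 4.37, 5.21 and 7.55 CPM with saline and a log2 fold change of 0.83 (SE 0.40). Kcnj12, an inward rectifier, had 23.6, 24.4 and 13.7 CPM with JV001, against 42.2, 40.8 and 25.3 CPM with saline, a log2 fold change of -0.81 (SE 0.28). Of 21 adrenergic and cyclic nucleotide genes 4 lay below without overlap, among them Pde4d, which breaks down cyclic AMP, with 21.98, 22.7 and 11.9 CPM with JV001, against 36.1, 36.2 and 23.7 CPM with saline and a log2 fold change of -0.76 (SE 0.26).

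Genes of mitochondrial fuel use were lower together, over a narrow range. Of 20 citric acid cycle genes 20 were negative, 15 had an unadjusted p under 0.05 (background 8.75%), 0 did not overlap and 20 passed without library 3. Their log2 fold changes ran from -0.84 to -0.58, with a median of -0.69. Cs, citrate synthase, had 774, 756 and 401 CPM in CKD JV001 libraries, against 1307, 1319.95 and 748 CPM in CKD saline libraries. CKD JV001 library 3 was the lowest and CKD saline library 3 lay just under CKD JV001 libraries 1 and 2, with a log2 fold change of -0.81 (SE 0.29). Of 27 genes of fatty acid uptake and oxidation 25 were negative, 19 had an unadjusted p under 0.05, 3 did not overlap and 21 passed without library 3, with a median of -0.71. Acot2, a mitochondrial thioesterase, had 39.5, 40.6 and 21.04 CPM with JV001, against 64.4, 76.04 and 45.04 CPM with saline, a log2 fold change of -0.87 (SE 0.27). Lpl, which frees fatty acids from lipoproteins, had 2618, 2508 and 1916 CPM with JV001, against 4184, 4219 and 2736 CPM with saline, a log2 fold change of -0.66 (SE 0.24). Hadh, a dehydrogenase of beta oxidation, overlapped, with 363, 349.5 and 173 CPM with JV001, against 622, 631 and 338 CPM with saline and a log2 fold change of -0.85 (SE 0.31). Cd36, the fatty acid transporter that endothelial cells also carry, was 1 of the 2 positive genes. It had 1340.3, 1212 and 1435 CPM with JV001, against 1188, 1247 and 1389.7 CPM with saline, a log2 fold change of 0.06 (SE 0.16).

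Sugar, amino acid and ketone use followed. Of 22 genes of glucose uptake and glycolysis 22 were negative and 1 did not overlap, with a median of -0.65; Pfkfb2, which speeds cardiac glycolysis, had 87.97, 88.4 and 33.2 CPM with JV001, against 179, 175 and 74.6 CPM with saline, a log2 fold change of -1.03 (SE 0.38). Of 19 genes of branched-chain amino acid and ketone use 19 were negative, 12 had an unadjusted p under 0.05 and 3 did not overlap. Ppm1k, the phosphatase that switches on branched-chain breakdown, had 44.9, 43.5 and 34.5 CPM in CKD JV001 libraries, against 74.8, 76.7 and 44.9 CPM in CKD saline libraries, a log2 fold change of -0.68 (SE 0.20), with CKD JV001 library 1 and CKD saline library 3 level at the third digit. Oxct1, the enzyme of ketone use, had 876, 863 and 386 CPM with JV001, against 1405, 1409 and 776 CPM with saline, a log2 fold change of -0.76 (SE 0.32). Of 19 regulators of the PPAR, PGC1 and ERR families and their partners 14 were negative, 4 with an unadjusted p under 0.05, and 5 positive, and 1 lay above and 0 below without overlap. Ppara, a receptor for fatty acids, had 41.9, 46.9 and 29.6 CPM with JV001, against 81.3, 87.7 and 43.3 CPM with saline. Ppargc1a, the coactivator of mitochondrial growth, had 39.1, 41.9 and 32.4 CPM with JV001, against 74.5, 79.5 and 39.4 CPM with saline. Their log2 fold changes were -0.84 (SE 0.25) and -0.77 (SE 0.32). Sirt1, a deacetylase that activates PGC1, was the 1 above, with 9.18, 9.42 and 13.7 CPM with JV001, against 7.81, 8.38 and 7.51 CPM with saline and a log2 fold change of 0.45 (SE 0.22).

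Nuclear genes of the respiratory chain were negative in 37 of 37 for complex I, 22 of 22 for complexes III and IV and 21 of 21 for ATP synthase and ADP/ATP exchange, with medians of -0.58, -0.58 and -0.62 and 0 genes without overlap. Without library 3 of both groups 33, 20 and 19 of them passed as lower. Ndufs1, a complex I subunit, had 450.2, 458 and 242 CPM in CKD JV001 libraries, against 786, 777 and 403 CPM in CKD saline libraries, a log2 fold change of -0.77 (SE 0.29). Atp5b, the catalytic subunit of ATP synthase, had 3677, 3591 and 1758 CPM with JV001, against 5819.7, 5839 and 3271 CPM with saline, a log2 fold change of -0.73 (SE 0.31). Mitochondrial ribosomal proteins were negative in 30 of 30, with a median of -0.53. The messenger RNAs of the mitochondrial genome did not follow: their median was -0.07 and changed sign on the FPKM scale and without some single libraries, with 5 positive and 8 negative of 13. ND5, a complex I subunit made in the mitochondrion, had 36649, 30132 and 38417 CPM with JV001, against 40625, 42171 and 39946 CPM with saline, a log2 fold change of -0.22 (SE 0.32). Cytosolic ribosomal proteins had a median of 0.03, with 25 of 43 positive; 9 lay above without overlap, with log2 fold changes no larger than 0.21, that of Rplp1, which had 302, 290.3 and 266 CPM with JV001, against 249, 256 and 238 CPM with saline. The ventricular markers, whose levels per library open the account, had a median of -0.74, and the part of the cardiomyocyte share in the difference of the nuclear genes was not tested.

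**Figure D4:**
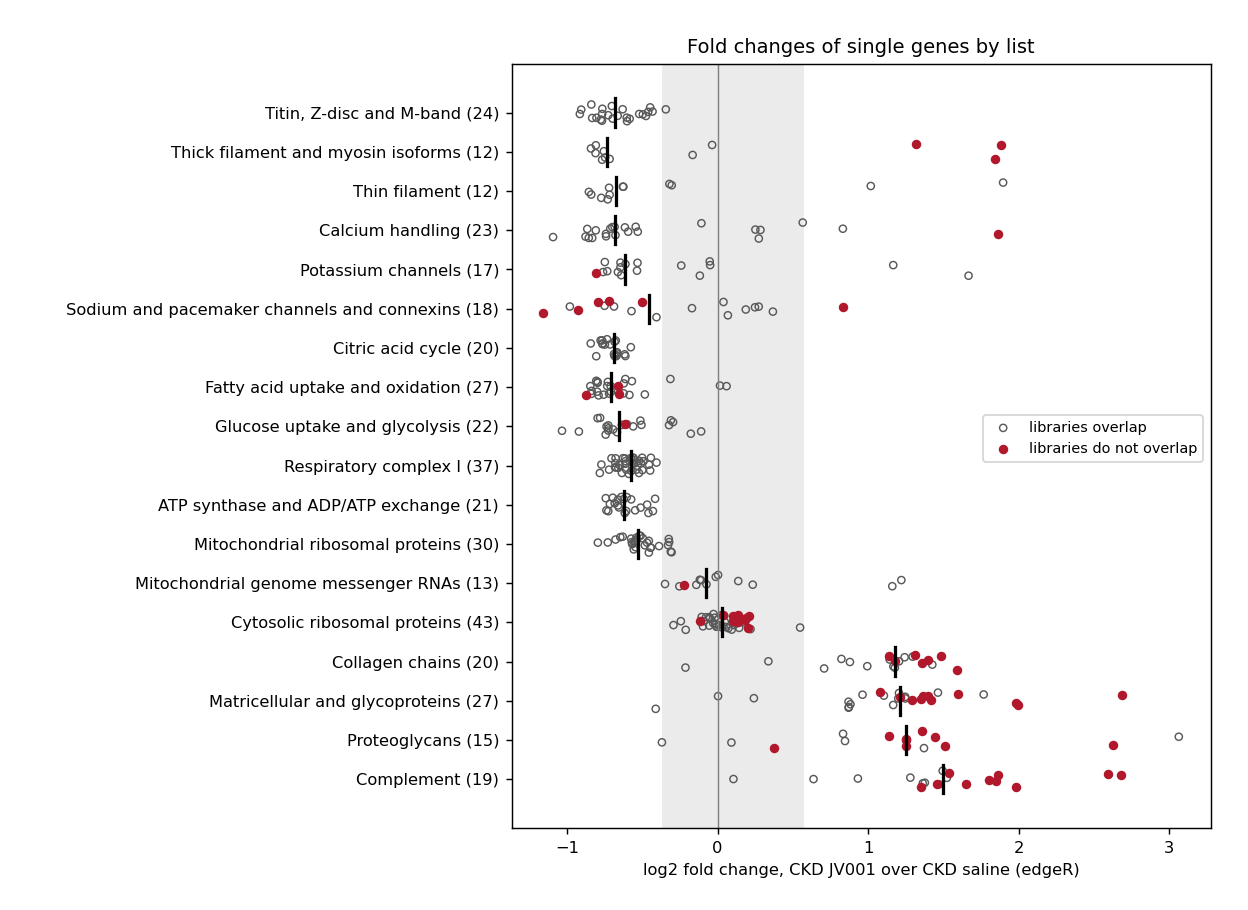
Log2 fold change of each tested gene in 18 lists, CKD JV001 over CKD saline. Black bars are list medians, filled points are genes whose groups did not overlap, and the grey band runs from the first to the third quartile of all genes tested. Most metabolic and sarcomere genes lie just below the grey band with few filled points, the medians of the mitochondrial genome and cytosolic ribosome lie near 0, and the medians of the matrix and complement lists lie above 1.

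Stress genes did not shift as a block. Heat shock chaperones had 11 positive and 9 negative of 20 and a median of 0.13, or -0.11 without CKD JV001 library 3. Hsp90aa1 had 163, 144 and 789 CPM in CKD JV001 libraries, against 126, 122 and 191 CPM in CKD saline libraries, so the log2 fold change of 1.32 (SE 0.55) was 0.07 without CKD JV001 library 3. Pdia4, a folding enzyme of the endoplasmic reticulum, had 32.4, 35.97 and 86.3 CPM with JV001, against 20.4, 20.7 and 32.2 CPM with saline, a log2 fold change of 1.08 (SE 0.38), although CKD JV001 library 1 and CKD saline library 3 were almost level. Antioxidant and oxidase genes went both ways, with 10 positive and 15 negative of 25, of which 7 and 6 had an unadjusted p under 0.05. Sod3, the extracellular superoxide dismutase, had 43.9, 42.2 and 58.04 CPM with JV001, against 15.9, 18.04 and 41.03 CPM with saline. Sod2, the mitochondrial one, had 331, 327 and 216 CPM with JV001, against 533, 529 and 278 CPM with saline. Their log2 fold changes were 0.94 (SE 0.34) and -0.62 (SE 0.26). Cybb, the catalytic subunit of the phagocyte oxidase, had 14.2, 14.5 and 56.4 CPM with JV001, against 3.92, 3.497 and 14.9 CPM with saline, a log2 fold change of 1.93 (SE 0.72). Of 22 immediate early genes 7 lay above and 3 below without overlap. Junb had 327, 312 and 579.6 CPM with JV001, against 156, 168 and 238 CPM with saline, a log2 fold change of 1.11 (SE 0.37), and Nr4a3 overlapped, with 11.5, 12.4 and 15.7 CPM with JV001, against 31.3, 31.97 and 13.9 CPM with saline and a log2 fold change of -0.96 (SE 0.38).

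Of 19 genes of ubiquitin ligases and the proteasome 18 were negative and 4 lay below without overlap; Psmc4, a proteasome ATPase, had 56.5, 53.7 and 41.7 CPM in CKD JV001 libraries, against 72.4, 67.5 and 56.6 CPM in CKD saline libraries, a log2 fold change of -0.37 (SE 0.15). Fbxo32, a ligase of muscle wasting, had 109.7, 125 and 76.9 CPM with JV001, against 227, 224 and 104 CPM with saline, a log2 fold change of -0.83 (SE 0.34). Iron handling genes went both ways, with 7 positive and 9 negative of 16, and 1 lay above and 2 below without overlap. Aco1, which binds iron-responsive messages when iron is low, had 25.3, 31.5 and 23.8 CPM with JV001, against 47.5, 43.1 and 34.4 CPM with saline, a log2 fold change of -0.63 (SE 0.17) with no overlap. Of 19 circadian clock genes 10 were positive and 9 negative, with a median of 0.02, and 1 higher and 1 lower passed without library 3. The higher one was Nr1d1, a repressor of the clock. Nr1d1 had 133, 132 and 141 CPM in CKD JV001 libraries, against 57.7, 65.6 and 102 CPM in CKD saline libraries, a log2 fold change of 0.85 (SE 0.25). Ulk1, which starts autophagy, had 70.8, 69.4 and 58.1 CPM with JV001, against 112, 118 and 74.6 CPM with saline, a log2 fold change of -0.62 (SE 0.19).

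Telomere genes are the subject of the series title. The 7 shelterin genes had a median log2 fold change of 0.09, from -0.23 to 0.67, and 0 had an unadjusted p under 0.05. Terf2, which folds and protects chromosome ends, had 11.8, 12.9 and 12.7 CPM in CKD JV001 libraries, against 11.7, 11.6 and 11.8 CPM in CKD saline libraries, a separation of less than 2 CPM with a log2 fold change of 0.09 (SE 0.14). Terf2ip, its partner Rap1, had 15.3, 13.2 and 15.3 CPM with JV001, against 17.4, 16.8 and 17.1 CPM with saline, a log2 fold change of -0.23 (SE 0.14). Of 20 genes of telomerase and telomere replication 10 were positive and 10 negative, with 1 at an unadjusted p under 0.05: Wrn, the helicase lost in Werner syndrome, had 9.09, 9.31 and 10.6 CPM with JV001, against 3.74, 3.53 and 9.45 CPM with saline, a log2 fold change of 0.80 (SE 0.39), with CKD saline library 3 at the CKD JV001 level. Of 20 p53 targets 3 lay above and 3 below without overlap. Mdm2, which degrades p53 and is induced by it, had 45.7, 42.5 and 46.5 CPM with JV001, against 52.8, 59.2 and 50.2 CPM with saline. Plk2, another target, had 71.5, 69.5 and 92.2 CPM with JV001, against 38.9, 34.3 and 56.3 CPM with saline. Their log2 fold changes were -0.27 (SE 0.12) and 0.85 (SE 0.29). Of 23 genes of DNA damage sensing and repair 10 were positive and 13 negative, with a median of -0.06. Without overlap 2 of them lay below (8.70%, near the background of 6.04%) and 0 above. Trp53bp1, which binds damaged chromatin and uncapped ends, had 23.5, 21.8 and 23.8 CPM in CKD JV001 libraries, against 27.8, 29.8 and 28.3 CPM in CKD saline libraries, a log2 fold change of -0.31 (SE 0.12). Mre11a, a nuclease at broken ends, had 7.38, 6.76 and 6.93 CPM with JV001, against 9.48, 10.4 and 7.86 CPM with saline, a log2 fold change of -0.40 (SE 0.18). Of 23 cell cycle genes 13 were positive and 10 negative, with a median of 0.02, or -0.34 without CKD JV001 library 3. Without overlap 3 of them lay below (13.0%, background 6.04%) and 0 above. Mcm2, a part of the replication helicase, had 8.07, 7.67 and 7.63 CPM with JV001, against 12.4, 9.76 and 12.04 CPM with saline, and its log2 fold change was -0.55 (SE 0.18). Cdkn2b, an inhibitor of the cell cycle, was low, with 14, 22 and 24 reads in CKD JV001 libraries, against 0, 1 and 6 reads in CKD saline libraries. Of 21 senescence inhibitors and secreted factors 18 were positive and 5 did not overlap, with a median of 1.10; Igfbp3 had 33.98, 38.8 and 64.4 CPM with JV001, against 14.1, 13.2 and 36.5 CPM with saline, a log2 fold change of 1.103 (SE 0.44).

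Genes of the renin-angiotensin-aldosterone system, through which the model acts, went both ways. Agtr1a, the main AngII receptor, had 22.7, 18.1 and 11.004 CPM in CKD JV001 libraries, against 43.3, 41.7 and 19.5 CPM in CKD saline libraries. Here CKD saline library 3 lay among the CKD JV001 libraries and the log2 fold change was -1.01 (SE 0.36). Ace, the enzyme that makes AngII and is abundant on endothelium, had 129, 127 and 161 CPM with JV001, against 34.4, 36.7 and 136 CPM with saline, a log2 fold change of 1.01 (SE 0.51). Nr3c2, the mineralocorticoid receptor, had 10.96, 13.6 and 12.1 CPM with JV001, against 19.9, 17.7 and 15.1 CPM with saline, a log2 fold change of -0.53 (SE 0.19) with no overlap. Mas1, the receptor for angiotensin 1-7, had 9, 2 and 12 reads in CKD JV001 libraries, against 32, 44 and 16 reads in CKD saline libraries, with a log2 fold change of -2.24 (SE 0.66).

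Whether the difference with JV001 was particular to the CKD model was tested as an interaction with the sham groups. edgeR called 0 of 15004 genes (0.0%), with a smallest adjusted p of 0.840 and 567 genes at an unadjusted p under 0.05. The last count was 2789 without CKD saline library 3 and 2945 without library 3 of both groups, again with 0 called (smallest adjusted p 0.253 and 0.0572). It was 338 and 328 without CKD saline library 1 and CKD saline library 2, and 329 without sham saline library 1. Some of the genes that separated the CKD groups were nearly level in sham: Zfp703 had 12.4, 10.4 and 9.18 CPM in sham JV001 libraries, against 13.4, 10.7 and 10.2 CPM in sham saline libraries, and its interaction was 1.02 (SE 0.26) on the log2 scale. Angptl2 had 41.99, 49.97 and 39.3 CPM with JV001, against 58.6, 42.7 and 49.3 CPM with saline in sham, an interaction of 1.03 (SE 0.26). Egr3 had an interaction of -2.12 (SE 0.53). Pdk4, which diverts pyruvate from the mitochondrion, had 156, 147 and 272 CPM in CKD JV001 libraries, against 358, 375 and 220.1 CPM in CKD saline libraries. In sham it had 2287, 539.6 and 994 CPM with JV001, against 446, 404 and 221 CPM with saline, so the differences had opposite signs and the interaction was -2.56 (SE 0.68). None of these 4 interactions passed after adjustment.

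**Figure D5:**
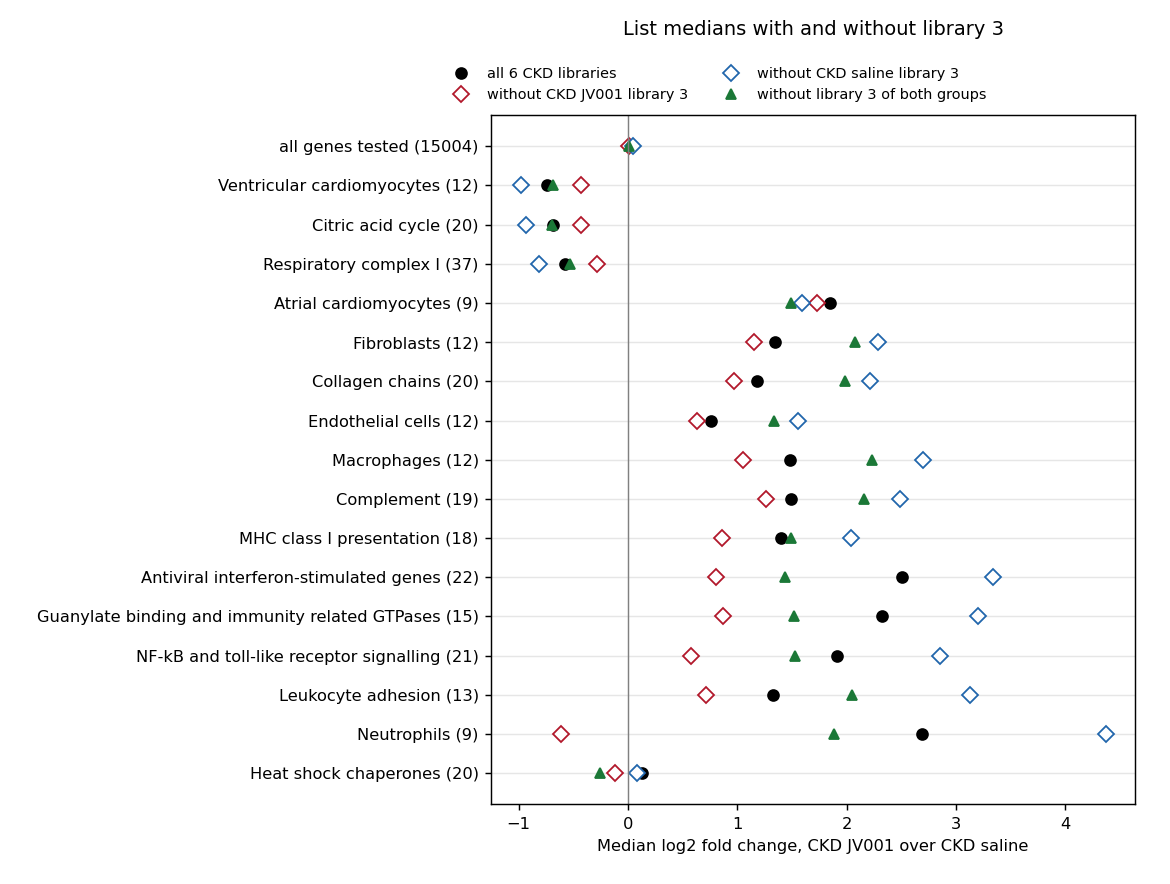
Median log2 fold change of 17 gene sets, CKD JV001 over CKD saline, with all 6 CKD libraries and with library 3 of either or both groups left out. Interferon, NF-kB and adhesion medians are lower without CKD JV001 library 3, and neutrophil markers change sign without it. Collagen, fibroblast, endothelial and macrophage medians are higher without CKD saline library 3, and ventricular and atrial medians are lower. Atrial markers move least among the lists above 1.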

How the data were processed

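PolyA RNA of cardiomyocytes was sequenced, and the authors deposited a table of raw read counts per gene and a table of FPKM, each with the 12 libraries as columns. The tools named are HISAT2, fastp and HTSeq and the build is GRCm39, per the submitters' processing notes, with no version, role or strand setting. The deposited FPKM equal the deposited counts per length and library total, and 100% of 10249 genes gave 1 whole-number length each (tolerance 0.01). Columns were matched to samples by name, and 21928 of 22584 gene names were found in the reference tables.

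Counts were filtered with filterByExpr (minimum count 10), normalised by TMM and fitted with 1 mean for each of 4 groups in edgeR 4.0.16 (R 4.3.3), with the quasi-likelihood F test and Benjamini-Hochberg adjustment over 15004 genes at a threshold of 0.05. SE is the absolute log2 fold change divided by the square root of F. The interaction was tested in the same fit. FPKM entered alternatives only, in limma 3.58.1; DESeq2 1.42.0 was another. The fit was run on simulated counts with known changes. Recovery was required only at a low spread set for the simulation, so this checks the code and not the power in these data. The 6 CKD libraries held 25.2 to 34.4 counts in units of 1e6, and counting error is widest for the genes given in reads.

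Same-numbered CKD libraries deviated together (correlations 0.296, 0.289 and 0.492 for libraries 1, 2 and 3), each over the limit of 0.1 set for pairing. The replicate number entered as a block in alternative fits only, and the main edgeR fit had no block. Libraries 1 and 2 correlated as well across numbers (0.311 and 0.270), so these correlations do not show that same-numbered libraries were paired.

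The gene lists and the naming rule were chosen with earlier results of these data known. Genes named are those of at least 5 CPM in a CKD group without overlap with the smallest p or largest fold change (10, 8 and 8 in each direction, the last 8 without library 3 of both groups), genes of at least 100 CPM with the smallest fold change, and, for each list, its index genes, up to 4 members with the smallest p and the member farthest on the other side, with the shelterin genes and Tert. Promoter windows and coordinates came from RefSeq sequences of GRCm38.p6, not the build of the counts. A few genes that met the rule are not reported here.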

Additional observations from a re-analysis of the deposited data

How the results depend on the processing

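The number of genes past the threshold in CKD depended on the handling of the libraries. It was 0 with all libraries in edgeR and stayed 0 with RLE factors, other filters, robust spread, mitochondrial and haemoglobin genes left out, only the 6 CKD libraries, and limma on log2(FPKM + 1) or log2(FPKM + 0.1) of filtered genes. It was 67 in DESeq2, 6738 in voom with quality weights, 3043 without library 3 of both groups and 6 in limma on unfiltered log2(FPKM + 1). Leaving out 1 library at a time gave 0 to 3287, the highest without CKD saline library 3. Chosen after seeing the data, the replicate block with only the 6 CKD libraries gave 2850, and only CKD libraries 1 and 2 gave 7136, while the block over all 12 libraries gave 0. For the interaction the count was 0 in the edgeR test, 0 with the replicate block, 2 in DESeq2 and 20 in voom. The FPKM fits shifted the median of all genes to 0.0999 (log2, pseudocount 1) and 0.129 (pseudocount 0.1). The FPKM are scaled to the library total and carry no TMM factor. The TMM factors were 1.02, 1.10 and 1.08 in CKD JV001, against 0.927, 0.903 and 0.998 in CKD saline. Why counts and medians differed between the fits was not tested.

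Among the genes named, the log2 fold change of S100a9 ranged from -0.93 to 4.98 over the fits that leave out 1 library, and was below 0 without CKD JV001 library 3. No other named gene changed sign in the alternatives run over all genes. Of 74 medians, those of the lists and of all genes, 18 changed sign in at least 1 alternative, and 1 of the 18 was beyond 0.4 with all libraries: neutrophil markers, at 2.69 with all libraries and -0.62 without CKD JV001 library 3. With 3 libraries a group, 1 of which stood apart in each, values of genes with few reads, such as Mas1, Cdkn2b and Cgas, are imprecise.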

Other observations

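Markers of the heart's outer lining and of lymphatic vessels were mostly positive. Of 7 epicardial and mesothelial markers 7 were positive, 1 had an unadjusted p under 0.05, 4 did not overlap and 0 passed without library 3 of both groups. Upk3b, a mesothelial membrane protein, had 42.8, 45.3 and 27.3 CPM in CKD JV001 libraries, against 9.51, 10.2 and 20.5 CPM in CKD saline libraries, a log2 fold change of 1.52 (SE 0.67). Msln, mesothelin, had 18.4, 20.1 and 11.9 CPM with JV001, against 4.15, 3.96 and 10.2 CPM with saline, a log2 fold change of 1.46 (SE 0.73). In both genes CKD JV001 libraries 1 and 2 were above library 3, unlike the interferon genes. Of 6 lymphatic markers 5 were positive, each with an unadjusted p under 0.05, and 4 did not overlap. Pdpn, podoplanin, had 8.11, 9.26 and 19.9 CPM in CKD JV001 libraries, against 0.9995, 1.35 and 4.45 CPM in CKD saline libraries, a log2 fold change of 2.46 (SE 0.71). Prox1, a lymphatic transcription factor that cardiomyocytes also express, had the opposite sign, with 29.9, 35.2 and 7.57 CPM with JV001, against 61.5, 61.6 and 25.9 CPM with saline and a log2 fold change of -1.04 (SE 0.47).

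Of 15 glucocorticoid-responsive genes 14 were positive and 1 lay above without overlap. Their median was 0.31, or -0.15 without CKD JV001 library 3. Of 15 hypoxia response genes 9 were positive and 6 negative, with a median of 0.13, and 0 lay above and 1 below without overlap. Some hormone and oxygen responsive genes differed through CKD JV001 library 3. Fkbp5, which glucocorticoids induce, had 19.5, 21.2 and 243 CPM in CKD JV001 libraries, against 15.1, 13.7 and 27.3 CPM in CKD saline libraries, and its log2 fold change of 2.33 (SE 0.87) was 0.12 without that library. P4ha1, a collagen prolyl hydroxylase induced by hypoxia, had 66.4, 59.1 and 405 CPM with JV001, against 39.2, 39.98 and 72.6 CPM with saline, and its log2 fold change of 1.81 (SE 0.66) was 0.31 without that library. Vegfa, the endothelial growth factor that cardiomyocytes make, was lower, with 201, 210.4 and 78.03 CPM with JV001, against 355, 357 and 184 CPM with saline and a log2 fold change of -0.87 (SE 0.36). CKD saline library 3 lay between the CKD JV001 libraries in Vegfa.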
